A study of Homo sapiens with 2 samples.

Results

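CD30, encoded by TNFRSF8, is the receptor by which Hodgkin and Reed-Sternberg cells are recognised in the clinic, and the genes described here are CD30, its ligand, several relatives of both and the TRAF adaptors that work beneath them. The set was 10 genes fixed by name: the receptor genes TNFRSF8, CD40, TNFRSF1A and TNFRSF1B, the ligand genes TNFSF8, CD70 and TNFSF4, and the adaptor genes TRAF1, TRAF2 and TRAF3. They were chosen by the measured values themselves, the untreated and vorinostat signals of these same arrays, so their differences are given as a description. Every probe set that the platform's annotation assigns to 1 of these symbols was taken, which gave 13 probe sets for 9 genes, of 19065 probe sets and 11963 genes that carry a single symbol. None of those probe sets carries the symbol TRAF2, so TRAF2 has no value here.

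The cells were L-540, an established Hodgkin lymphoma line usually assigned to the T lineage, and 2 cultures were compared: cells left untreated and cells exposed to vorinostat, a hydroxamic acid inhibitor of histone deacetylases. Each was measured on 1 Affymetrix HG_U133A array, so no value has a replicate error and no test was possible. Dose and duration of exposure are not given in the sources used here. A single line stands for the disease, and both arrays come from that line.

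Receptors of the TNF family are membrane proteins that cluster when a ligand, itself usually a membrane protein on a neighbouring cell, binds them. Receptors without a death domain, such as CD30, CD40 and TNFRSF1B, recruit TRAF proteins directly, whereas TNFRSF1A carries a death domain and acts through the adaptor TRADD. TRAF2 and TRAF3 hold the kinase encoded by MAP3K14 in check in resting cells, and the release of that kinase drives the alternative NF-kB pathway, which ends in NFKB2 and RELB. In Hodgkin cells CD30 is abundant, NF-kB is constantly active, and TRAF1, itself an NF-kB target gene, is characteristically high.

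The promoter sequences below belong to the 3 members with a RefSeq promoter entry whose brightest probe set was at least 2-fold apart between the arrays. They are from RefSeq on build GRCh38.p14, run 5′ to 3′ on the gene's own strand (the plus strand for each) and end 20 bases after the start of transcription. The TNFRSF8 stretch is chr1:12063203-12063322 (100 bases before the start), the TNFRSF1B stretch chr1:12166851-12167010 (140 bases before) and the TRAF3 stretch chr14:102777309-102777468 (140 bases before). Capitals mark matches to the AP-1 motif TGANTCA, the Sp1 motif GGGCGG or the NF-kB consensus motif, each searched on both strands.
TNFRSF8: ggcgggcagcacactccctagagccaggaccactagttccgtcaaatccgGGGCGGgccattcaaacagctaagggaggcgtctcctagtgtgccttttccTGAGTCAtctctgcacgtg
TNFRSF1B: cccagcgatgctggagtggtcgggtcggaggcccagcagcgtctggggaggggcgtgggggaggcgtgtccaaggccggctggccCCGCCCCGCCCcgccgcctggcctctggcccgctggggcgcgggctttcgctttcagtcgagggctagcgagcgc
TRAF3: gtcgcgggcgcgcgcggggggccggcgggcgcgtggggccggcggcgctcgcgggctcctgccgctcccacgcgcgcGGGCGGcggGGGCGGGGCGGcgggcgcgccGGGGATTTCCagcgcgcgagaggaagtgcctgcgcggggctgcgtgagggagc

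TNFRSF8 held 1 AP-1 match, at positions 2 to 8 after the start, and 1 Sp1 match, which begins 50 bases before the start. AP-1 and Sp1 are both known to act on the CD30 promoter. The window searched ran from 250 bases before the start to 50 after it, so sites farther upstream were not searched. Whether either factor acts through the matches shown was not tested. TNFRSF1B held 2 Sp1 matches that share a base, at 55 and 50 bases before the start, and no match to the other motifs. TRAF3 held 6 Sp1 matches in its whole 300-base window, 3 of them in the stretch shown, and 1 NF-kB match, GGGGATTTCC, that begins 33 bases before the start. Of 35116 RefSeq promoter windows of the same length, 7.71% held the AP-1 motif, 45.0% the Sp1 motif and 11.3% the NF-kB motif. Of the 10 members, 7 had a promoter entry, 9 windows in all because TRAF1 has 3 starts. Of the remaining windows, 1 of TRAF1 held 1 Sp1 match and that of TRAF2 held 2, and the other 2 windows of TRAF1 and those of TNFRSF1A and TNFSF4 held no match to any of the 3 motifs. These are matches of letters, not binding sites.

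The values are MAS5 signals, a linear brightness per probe set scaled by 1 factor per array, and signals of different probe sets cannot be ranked against each other. A floor of 68.9 signal units, the 40th percentile of all signals of non-control probe sets, was set for dim probe sets. A probe set at or under it on both arrays was not measured, and on 1 array it gives a bound. Trimmed mean signals were 499.9 on both arrays, and the share of non-control probe sets above the floor was 61.2% untreated and 58.8% treated. Of 8 marker genes of Hodgkin cells fixed in a list, 7 lay above the floor on both arrays and CCL17 did not, and their summed signal was 34703 untreated and 24764 treated, or 23927 and 21536 without TNFRSF8. Among the other markers of that list BATF3 had signals of 6200 and 1825, IRF4 12032 and 14699 and GATA3 1174 and 1565. FSCN1 had 1176 and 691, FUT4 335 and 218 and IL2RA 2966 and 2507, each on its brightest probe set. The other IL2RA probe set had 1687 and 1697. The B-cell genes CD79A, CD79B and MS4A1, the T-cell genes CD3D, CD3G and CD8A, the myeloid genes CD14 and LYZ and the epithelial gene EPCAM did not exceed the floor on either array. Other genes of these lists did: the T-cell genes CD4 (926 and 812) and CD2 (319 and 220) and, in untreated cells alone, CD3E (139), the B-cell gene PAX5 (313 and 127), the myeloid genes CSF1R (207 and 149) and ITGAM (129 and 76.5), and COL1A1 (276 and 273) and KRT8 (82.9 and 108) of the epithelial and fibroblast list. KRT18 and COL1A2 exceeded it in treated cells alone (76.4 and 97.8). The summed signal of the B-cell list was 406 and 222, of the T-cell list 1456 and 1195, of the myeloid list 346 and 237, and of the epithelial and fibroblast list 465 and 562, untreated and treated. All these sums add deposited signals, those under the floor included, so bright probe sets weigh most in them. Lower RNA per cell and fewer cells carrying a transcript cannot be told apart in such bulk RNA.

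Of the 10 members, 7 were measured, and for 6 of these both signals exceeded the floor. Of these 7, 1 was at least 2-fold higher after vorinostat, 3 were at least 2-fold lower and 3 were neither. Among all 8277 measured genes the shares were 3.77% higher and 5.12% lower. The median log2 ratio (vorinostat over untreated) was -0.62 over the 7 measured members and -0.04 over all measured genes. TNFRSF8, CD70 and TRAF3 were the lower members, TNFRSF1B the higher one, and CD40 and TRAF1 lay within 2-fold. TNFSF4, at the floor on the untreated array, gave only a bound and was counted as neither. Each measured gene is represented by its brightest probe set.

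**Figure D1:**
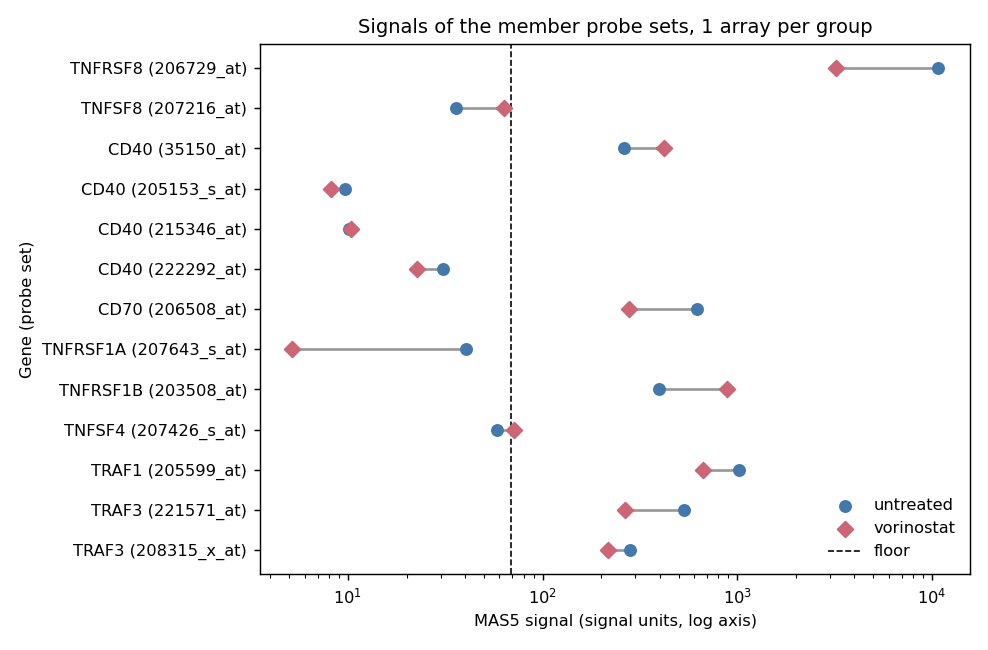
MAS5 signal of each of the 13 member probe sets (log axis, signal units) on the untreated array (circles) and the vorinostat array (diamonds), with the floor of 68.9 as a dashed line. The signal of TNFRSF8 goes from 10777 to 3228 and that of TNFRSF1B from 397 to 889, while 5 probe sets lie under the floor on both arrays; heights of different probe sets are not comparable.

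Among the receptors, TNFRSF8 had a signal of 10777 in untreated and 3228 in vorinostat-treated cells on its only probe set, 206729_at. The treated signal was 3.34-fold lower, a log2 ratio of -1.74, and still far above the floor. Of the 8277 measured genes, 52 had a lower ratio, and of the 2327 genes with an untreated signal of at least 1000, 18 had a lower ratio. In that bright group 5.63% of genes were at least 2-fold lower and 1.59% at least 2-fold higher. The 3 bright genes whose log2 ratios lay nearest to that of TNFRSF8 were GATAD1 (-1.73), PRDM1 (-1.76) and BATF3 (-1.76). PRDM1 encodes the plasma cell regulator BLIMP1 and BATF3 an AP-1 family factor typical of CD30-positive lymphomas, and likeness here is only nearness of 1 ratio from 1 pair of arrays.

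TNFRSF1B, which encodes TNF receptor 2, the receptor that responds best to membrane-bound TNF, went the other way. Its only probe set, 203508_at, had a signal of 397 untreated and 889 treated, 2.24-fold higher (log2 ratio 1.16). Of all measured genes, 182 had a higher ratio. The 2 receptor genes with opposite ratios, TNFRSF8 and TNFRSF1B, are next to each other on chromosome 1 in the same orientation, with no other protein-coding gene starting between them in the RefSeq table, and their starts lie 103688 bases apart.

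CD40, the receptor through which T cells license B cells and dendritic cells, had 4 probe sets. Probe set 35150_at had signals of 262 untreated and 423 treated, 1.61-fold higher (log2 ratio 0.69). The other CD40 probe sets read 9.65 and 8.17 (205153_s_at), 10.2 and 10.3 (215346_at) and 30.9 and 22.7 (222292_at), all under the floor on both arrays. CD40 therefore rests on 1 of its 4 probe sets. The others give no ratio, and which of the 4 reads CD40 transcript was not tested. TNFRSF1A, the death domain receptor for TNF, read 40.7 untreated and 5.16 treated on its only probe set, 207643_s_at, under the floor on both arrays. No fold is given for it, since values under the floor have no order.

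**Figure D2:**
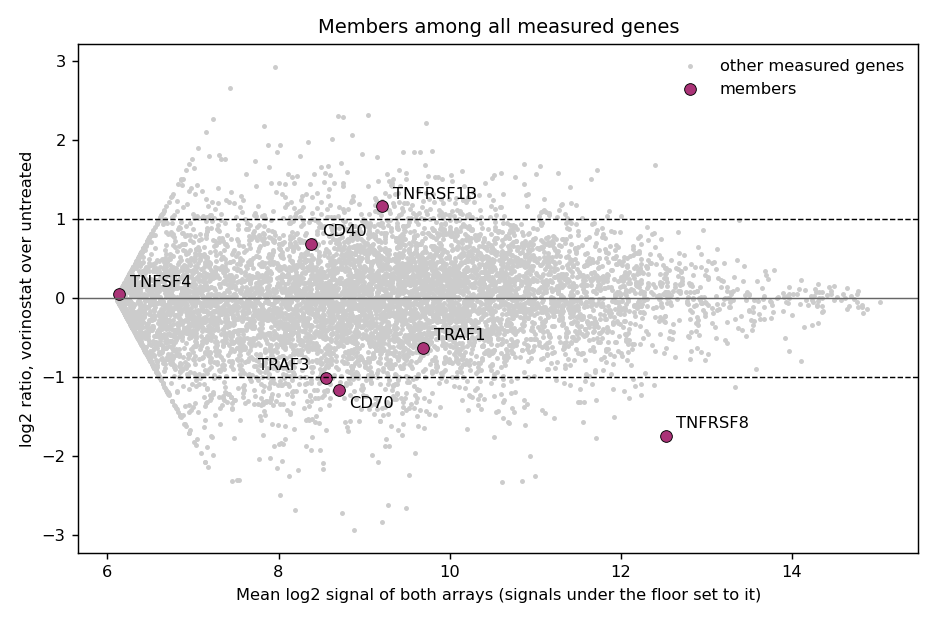
log2 ratio (vorinostat over untreated, vertical axis) against mean log2 signal of both arrays (horizontal axis) for 8277 measured genes in grey and the 7 measured members in purple; dashed lines mark 2-fold. TNFRSF8 lies at -1.74 among bright genes, TNFRSF1B lies at 1.16, and TNFSF4 lies at the floor.

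Of the member ligands, only CD70 was clearly above the floor. CD70 is the ligand of CD27 and is often carried by lymphoma cells. Its probe set, 206508_at, had signals of 622 untreated and 279 treated, 2.23-fold lower (log2 ratio -1.16). TNFSF8, the ligand of CD30, read 36.1 and 63.2 on 207216_at, under the floor on both arrays, so no ratio can be set beside that of its receptor. TNFSF4, the OX40 ligand, read 58.3 untreated and 71.6 treated on 207426_s_at, and lay at the floor on the untreated array. Its ratio is a bound of at least 1.04-fold higher, and both signals lie beside the floor.

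Among the adaptors, TRAF1, which pairs with TRAF2 and carries no RING domain of its own, had signals of 1027 and 666 on 205599_at. It was 1.54-fold lower (log2 ratio -0.62), short of 2-fold. TRAF3, the adaptor that marks the MAP3K14 kinase for degradation, had 2 measured probe sets. Probe set 221571_at gave signals of 535 and 266, 2.01-fold lower (log2 ratio -1.01), and 208315_x_at gave 282 and 216, 1.31-fold lower (log2 ratio -0.39). Both TRAF3 probe sets were lower in treated cells, and the brighter passed 2-fold by a small margin. TRAF3 is the member just inside that line, and CD40 and TRAF1 are the nearest outside it. TRAF3 fell short of 2-fold in 5 of 8 alternative settings, with log2 ratios from -0.97 after loess to -0.70 for the median of its probe sets.

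The spread between probe sets of 1 gene is the closest measure of error that these arrays hold, although it covers probe effects and not differences between cultures. For 2428 genes with at least 2 probe sets above the floor on both arrays, the log2 ratios of the brightest and the next probe set differed by a median of 0.25, and in 10% of genes by more than 0.67. The TRAF3 probe sets differed by 0.62, and 13.0% of these genes differed by more. Of 219 such genes whose brightest probe set was at least 2-fold apart, the next one went the same way in 209 (95.4%) and was also at least 2-fold apart in 124 (56.6%). TNFRSF8, TNFRSF1B, CD70 and TRAF1 have 1 probe set each, so this check was open to TRAF3 alone among the measured members.

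The scaling of the arrays bears on directions too. When both arrays were set to equal median signals, the median log2 ratio of all measured genes moved from -0.04 to 0.08, and 58.8% of the genes at least 2-fold apart were higher, against 42.4% with the deposited scaling. Under that scaling the log2 ratios were -1.61 for TNFRSF8, -1.03 for CD70, -0.88 for TRAF3 and -0.50 for TRAF1. They were 0.82 for CD40, 1.29 for TNFRSF1B and 0.12 for TNFSF4. The signs of the 7 measured members were the same, but this could not have come out otherwise. Genes above the floor on both arrays all shift by the same small amount, less than the ratio of any such member. The sign of TNFSF4 is set by its untreated signal lying at the floor.

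**Figure D3:**
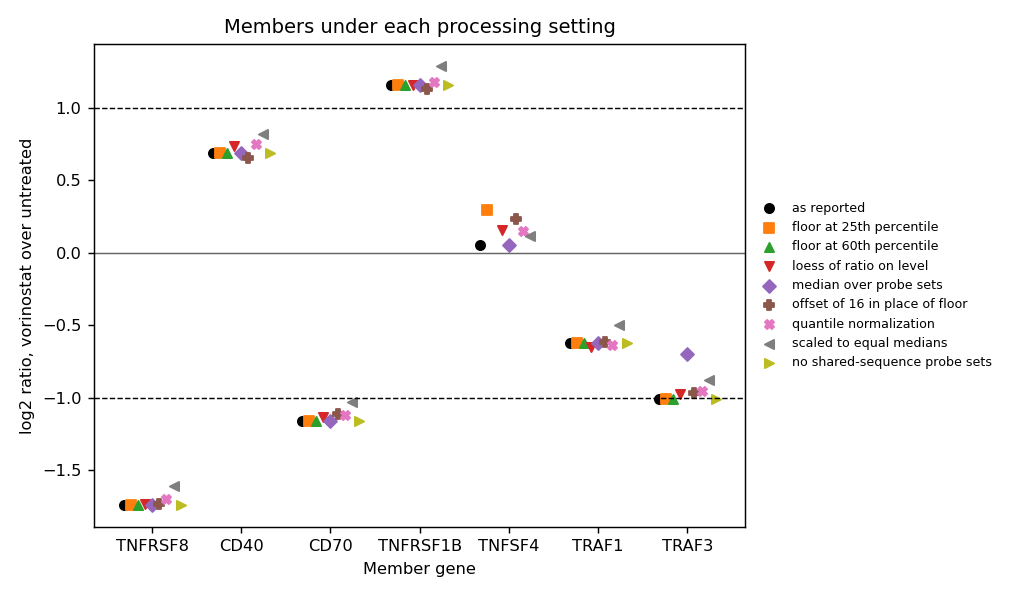
log2 ratio (vorinostat over untreated) of the 7 measured members under the reported setting (black circles) and 8 alternatives (coloured symbols; 6 for TNFSF4, which the other 2 did not measure), with dashed lines at 2-fold. TNFRSF8 (-1.74 to -1.61), CD70 (-1.16 to -1.03) and TNFRSF1B (1.13 to 1.29) stay outside 2-fold, and TRAF3 (-1.01 to -0.70) straddles the line. TNFRSF8, CD70 and TNFRSF1B have 1 probe set each. The other floors, the median over probe sets and the removal of shared-sequence probe sets therefore could not move them.

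Lists of the other genes of the pathway gave 69 measured genes, of which 2 were at least 2-fold higher, 7 lower and 60 neither. The shares of all measured genes given above were 3.77% and 5.12%. The ligand list had 4 measured genes of 12 with a probe set, none of them 2-fold apart (median log2 ratio 0.01). TNFSF10 had signals of 1612 and 1852 (1.15-fold higher), far above the floor, and its other 2 probe sets were higher too. TNFSF9, the ligand of 4-1BB, read 73.6 and 72.4 and the ectodysplasin gene EDA 78.1 and 75.9, both just above the floor. The other EDA probe sets were under it on both arrays. TNF, at 59.1 and 71.1, was at the floor in untreated cells, so the median of this list takes in a bound. The other 8 ligand genes with a probe set were under the floor on both arrays, as TNFSF8 was among the members.

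Of 11 other receptors measured, of 19 with a probe set, 1 was at least 2-fold lower and 0 higher (median log2 ratio 0.06). The lower one was the death receptor FAS, with signals of 3495 and 697 and log2 ratios from -2.33 to -2.00 over its 4 probe sets, all of which can share sequence with other genes. The median over all measured genes was -0.04. That of the receptor list, 0.06, is the value of TNFRSF10D, which is only a bound. TNFRSF25, death receptor 3, had a log2 ratio of 0.15, and TNFRSF10D, a decoy receptor for TRAIL, was at the floor in untreated cells.

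**Figure D4:**
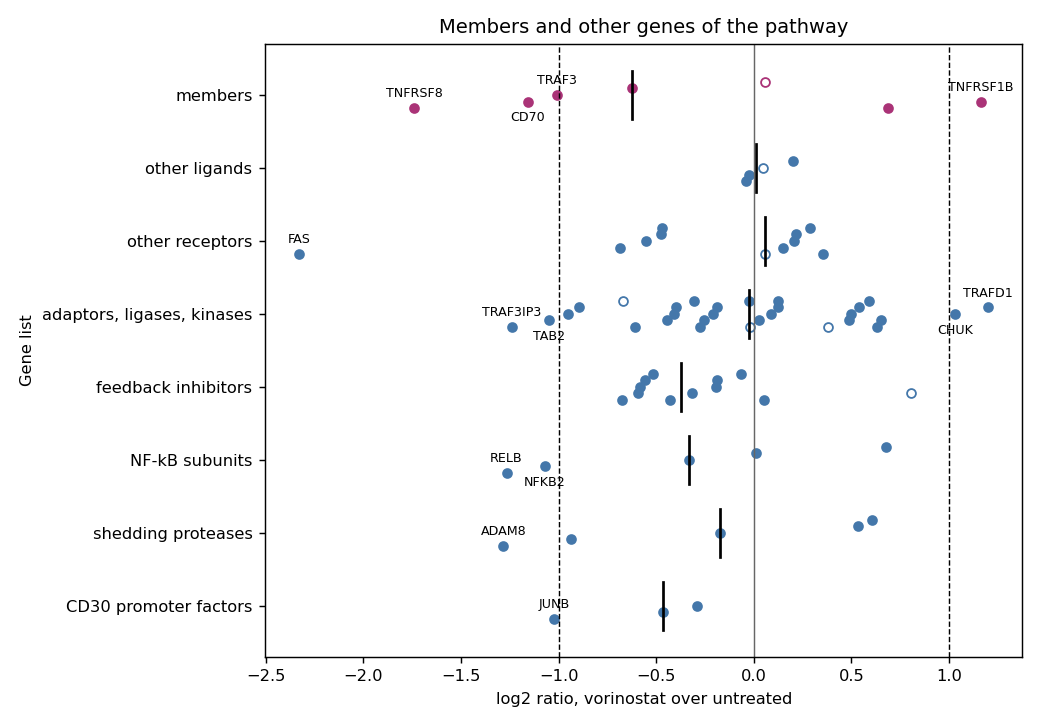
log2 ratio (vorinostat over untreated) of the 7 measured members (purple) and of 69 other measured pathway genes (blue) by list, with open circles for genes at the floor on 1 array, a black bar for each list's median and dashed lines at 2-fold. Genes at least 2-fold apart are named; FAS (-2.33) and TNFRSF8 (-1.74) lie farthest to the left.

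Between the receptors and NF-kB, 29 adaptor, ligase and kinase genes were measured, with 2 at least 2-fold higher, 2 lower and 25 neither (median log2 ratio -0.02). TRAFD1, a TRAF-type zinc finger protein that restrains innate signalling, had signals of 479 and 1100 (2.30-fold higher), and its other probe set was 3.57-fold higher. CHUK, the IKK-alpha kinase of the alternative pathway, had signals of 97.1 and 198 (2.04-fold higher, log2 ratio 0.92 when an offset replaced the floor). TRAF3IP3, a lymphoid TRAF3-binding protein, had 2247 and 952 (2.36-fold lower). TAB2, which links ubiquitin chains to the kinase TAK1, had 1695 and 819 (2.07-fold lower, but log2 ratios of -0.92 at equal medians and -0.94 for the median of its probe sets). TRADD, the adaptor of TNFRSF1A, had a log2 ratio of -0.27, and BIRC2, a ubiquitin ligase gene, 0.63. IKBKG, the regulatory subunit of the IKK complex, had -0.02, and MAP3K1 was at the floor in treated cells. MAP3K14, the kinase whose release drives the alternative pathway, had signals of 908 and 989 (log2 ratio 0.12). Named after its value was seen, TRAF5, the adaptor closest to TRAF3 in sequence, had signals of 1144 and 614 (1.86-fold lower). RIPK1 and BIRC3 had no probe set under their symbols.

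Downstream, the pair of subunits that the alternative pathway uses had lower signals in treated cells. RELB had signals of 532 and 221 (2.41-fold lower, log2 ratio -1.27), and NFKB2 had 1357 and 647 (2.10-fold lower), while its next brightest probe set had 290 and 162 (1.79-fold lower). NFKB2 fell short of 2-fold at equal medians (-0.94), for the median of its probe sets (-0.95) and without probe sets that can share sequence (-0.84). NFKB1 (925.6 and 932), RELA (1877 and 1491) and REL (131 and 209) lay within 2-fold. The other probe set of REL was under the floor on both arrays. The other probe set of RELA had 421 and 236 (1.78-fold lower), a ratio like that of the next NFKB2 probe set. By brightest probe sets 2 of 5 subunits were at least 2-fold lower and 0 higher (median log2 ratio -0.33). The shares over all measured genes were 5.12% lower and 3.77% higher. Of 12 feedback inhibitors 0 were 2-fold apart (median -0.37), among them TNFAIP3, which encodes the deubiquitinase A20 (-0.43), NFKBIA, which encodes the NF-kB inhibitor IkB-alpha (-0.59), CYLD (0.05) and ZFAND5 (-0.06).

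Proteases cut TNF receptors and ligands from the cell surface, and CD30 is shed by ADAM10 and ADAM17. ADAM10 had signals of 2077 and 3005 (1.45-fold higher) and ADAM17 1035 and 1574 (1.52-fold higher), and each of their other probe sets had a ratio above 0. Both lay within 2-fold, while ADAM8 had 2475 and 1018 (2.43-fold lower), with its other probe set lower too. Of the 5 genes in that list 1 was at least 2-fold lower and 0 higher (median log2 ratio -0.18); TIMP3, an inhibitor of ADAM17, had a log2 ratio of -0.18.

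Of the factors known to act on the CD30 promoter, JUNB, the AP-1 subunit that drives CD30 in Hodgkin cells, had signals of 6463 and 3181 on its only probe set. It was 2.03-fold lower (log2 ratio -1.02, and -0.89 at equal medians, short of 2-fold). SP1 had 195 and 142 (1.38-fold lower) and YY1, a repressor at that promoter, 3436 and 2811 (1.22-fold lower). By this count 1 of 3 was at least 2-fold lower and 0 higher, against 5.12% lower and 3.77% higher over all measured genes. The median log2 ratio of the list, -0.46, is the value of SP1. The letters of the AP-1 and Sp1 motifs stand in the TNFRSF8 stretch printed above, and whether the factors bound there was not measured.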

How the data were processed

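Each of the 2 samples was hybridised to 1 HG_U133A array, and the authors deposited 1 linear intensity per probe set, computed by MAS5, per the submitters' processing notes; its version, scaling target and detection calls are not given in the sources used here. The 68 control probe sets were left out, and of the other 22215, signals below the floor were raised to it, then log2 was taken. Genes were named from the platform's annotation through RefSeq identifiers (GRCh38.p14), leaving out 1043 probe sets with several symbols and 2107 not in that table. A gene with several probe sets was represented by the brightest (mean log2 over both arrays), and ratios are vorinostat over untreated. With 1 array per group, 2-fold was a rule of size and no p-value was computed.

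The members and lists were chosen with earlier results of these data known. Named were all members, list genes at least 2-fold apart, the 2 measured genes of each list nearest to equal signal and a fixed set of regulators. TRAF5, MAP3K14, TNFSF10 and TNF were named after their values were seen. The alternatives were equal medians, quantile normalization, loess, floors at the 25th and 60th percentiles, an offset of 16, the median over probe sets, no shared-sequence probe sets (suffixes _s_at, _x_at or _a_at), and thresholds of 1.5-fold and 3-fold. Steps were tested on simulated data and run in Python 3.11.15 with pandas 2.3.3, numpy 2.4.6 and statsmodels 0.14.6. The number of arrays limits the precision.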

Additional observations from a re-analysis of the deposited data

How the results depend on the processing

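The higher count among members was 1 under the 8 alternatives of scaling, normalization, floor and probe set. It was 2 with a 1.5-fold threshold (CD40 added) and 0 with a 3-fold one. The alternatives of floor and probe set could not move TNFRSF8, CD70 or TNFRSF1B, each with 1 unshared probe set above those floors. The lower count was 3 as reported and 1, TNFRSF8, with the 3-fold threshold. It was 2 in 4 of the 5 alternatives in which TRAF3 fell short, 3 in the fifth (the offset, where TNFRSF1A, under the reported floor on both arrays, is counted), and 4 with the 1.5-fold threshold (TRAF1 added). Moving the cut-off to 1.5-fold put 12.7% of all 8277 measured genes in the higher class and 15.5% in the lower class. With 3-fold these shares were 0.544% and 0.93%. FAS was at least 2-fold lower in the 7 alternatives that measured it, which leaves out the one without shared-sequence probe sets. TNFSF8 and TNFRSF1A gave a value only where the floor was lowered or dropped, from signals too dim to be ordered under the reported setting. No paired analysis was possible because each group held 1 array. Signal near the floor limits what can be said of TNFSF4, TNFSF8 and TNFRSF1A.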

Other observations

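Around TNFRSF8 and TNFRSF1B on chromosome 1, the next measured protein-coding genes had smaller ratios. MIIP, the gene before TNFRSF8 in the RefSeq order, had signals of 3883 and 3004 (log2 ratio -0.37), and MFN2, which encodes a mitochondrial fusion protein, had 3013 and 2586 (-0.22). PLOD1, a collagen-modifying enzyme gene a further place away, had 313 and 613 (0.97). On the far side, VPS13D, the gene after TNFRSF1B, had 395 and 451 (0.19). These values are single ratios from 1 pair of arrays.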
